A study of Mus musculus with 12 samples.

Results

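The naive pluripotency transcription factors described here are Klf4, Klf2, Klf5, Nanog, Esrrb, Tfcp2l1, Tbx3, Zfp42 and Prdm14, taken as a list of symbols that was drawn up with earlier results of these data known, with no threshold on their values. They are 9 of the 50978 genes in the deposited expression table, and all 9 were among the 12914 genes tested. Their RNA was measured by sequencing polyadenylated RNA from E14 mouse embryonic stem cells (ESCs) in 3 lines, with 2 libraries per line from independent dishes. The parental E14 cells, labelled wild-type, carried no transgene. The labels call the derived lines ESCs+Pramel7WT and ESCs+Pramel7DNterm, named PRAMEL7-WT ESCs and PRAMEL7-ΔN ESCs below. PRAMEL7-WT ESCs expressed HA/FLAG-tagged full-length Pramel7, and PRAMEL7-ΔN ESCs a form whose N-terminal deletion the labels give as 50 amino acids. Cas9 had been used to place both sequences at Rosa26 behind the constitutive CAG promoter, and resistant cells had been selected with puromycin and isolated as single-cell clones. No selected line without a Pramel7 sequence was among the samples, so the transgene cannot be told apart from selection and cloning in a comparison with parental ESCs. All lines grew in medium with 15% serum and leukaemia inhibitory factor (LIF), the cytokine that holds mouse ESCs in the undifferentiated state.

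Naive pluripotency is the state of the preimplantation epiblast, and mouse ESCs hold it through a set of transcription factors that bind one another's enhancers and partly replace one another. LIF acts through STAT3, which switches on Klf4 and Tfcp2l1. WNT signalling relieves the repressor TCF7L1 from targets such as Esrrb, whereas FGF and ERK signalling destabilizes KLF2 protein and drives cells towards the formative and primed states. PRAMEL7 is a leucine-rich repeat protein of the inner cell mass that acts with the CUL2 ubiquitin ligase, and its N-terminal part was the element that the design altered.

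Levels are given in CPM, reads scaled to 1000000 reads on genes as an average over the libraries. They were rebuilt from the deposited RPKM values and keep the authors' scaling between libraries. A log2 fold change is a difference between line means of log2(CPM + 1) from limma with all 6 libraries in 1 fit, and a gene was called when its p-value, adjusted by Benjamini-Hochberg over all tested genes, was under 0.05. Each library held 18256529 to 19857705 reads on genes, and the factors were covered by about 625 reads in the thinnest case, Prdm14, and up to about 22330 for Esrrb. Pramel7 itself had 0.258 and 0.217 CPM in parental ESCs, 51.2 and 46.3 CPM in PRAMEL7-WT ESCs and 397.7 and 430.9 CPM in PRAMEL7-ΔN ESCs. The derived lines therefore differed in the amount of Pramel7 RNA as well as in its sequence, and they had been cloned separately. These differences cannot be told apart. The labels do not give the number of clones per line. The libraries of a line came from dishes, so SE and adjusted p measure the spread between dishes and not between clones. The 7 ESC markers, led by Dppa5a, include the factors Nanog and Zfp42. They summed to 3692 to 4052 CPM in parental, 3788 to 4167 CPM in PRAMEL7-WT and 4297 to 4343 CPM in PRAMEL7-ΔN ESCs. Gata6, Sox17, Cdx2, Dcn and Lum, which mark other lineages, were below 1 CPM in every line. Of the 6 primitive endoderm markers, 2 to 3 were below 1 CPM in a line, and the sum, led by Sox7, was 6.95 to 9.29 CPM in parental, 10.96 to 11.9 CPM in PRAMEL7-WT and 9.19 to 9.99 CPM in PRAMEL7-ΔN ESCs. Of the 6 fibroblast markers, 4 to 5 were below 1 CPM in a line, and the summed level, nearly all Thy1, was 41.8 to 55.6 CPM in parental, 21.1 to 22.4 CPM in PRAMEL7-WT and 38.8 to 43.7 CPM in PRAMEL7-ΔN ESCs. Of the 6 trophectoderm markers, 3 to 4 were below 1 CPM, and the sum, led by Eomes, was 8.10 to 9.60, 8.25 to 11.3 and 13.2 to 14.4 CPM in the same order. The 5 mesoderm markers, also led by Eomes, summed to 5.70 to 6.81, 5.42 to 7.43 and 11.5 to 12.8 CPM. The part of these shifts in the results was not tested. In these bulk libraries, fewer cells expressing a gene and less RNA per cell cannot be told apart.

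The promoters of the factors the results turn on show where these genes are read from. RefSeq windows on GRCm38.p6, from 250 bases before the transcription start to 50 after it, were at hand for 6 of the 9 factors (Klf4, Klf2, Nanog, Esrrb, Tfcp2l1 and Zfp42). Klf2 and Klf4 are shown because their RNA moved most and in opposite directions between the derived lines, and Nanog because it holds a composite SOX2 and OCT4 element. Capitals mark GGGCGG, the GC box that SP and KLF proteins bind, and the SOX-OCT element (ATTGTN directly followed by ATGCAAA), on either strand. The Klf2 window lies on the plus strand at chr8:72318812-72319111, the Klf4 window on the minus strand at chr4:55532426-55532725, and the Nanog window on the plus strand at chr6:122707315-122707614.
Klf2: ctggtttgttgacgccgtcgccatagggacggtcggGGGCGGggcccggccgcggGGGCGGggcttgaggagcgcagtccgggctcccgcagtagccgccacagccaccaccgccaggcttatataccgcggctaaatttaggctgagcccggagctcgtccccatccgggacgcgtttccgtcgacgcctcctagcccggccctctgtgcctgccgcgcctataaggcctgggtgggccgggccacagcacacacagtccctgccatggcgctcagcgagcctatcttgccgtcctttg
Klf4: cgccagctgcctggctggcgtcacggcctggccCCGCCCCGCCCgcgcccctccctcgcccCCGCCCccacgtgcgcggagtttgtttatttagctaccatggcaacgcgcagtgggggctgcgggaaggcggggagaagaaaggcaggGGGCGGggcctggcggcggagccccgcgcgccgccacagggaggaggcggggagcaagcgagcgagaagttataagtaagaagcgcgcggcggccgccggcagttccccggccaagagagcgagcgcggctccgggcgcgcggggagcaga
Nanog: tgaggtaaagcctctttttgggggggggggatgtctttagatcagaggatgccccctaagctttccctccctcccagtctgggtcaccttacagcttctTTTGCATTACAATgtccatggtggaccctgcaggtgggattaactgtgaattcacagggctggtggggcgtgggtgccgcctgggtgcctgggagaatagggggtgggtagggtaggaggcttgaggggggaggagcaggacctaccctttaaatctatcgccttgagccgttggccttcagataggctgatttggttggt

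In the GENCODE annotation of GRCm38, Klf2 spans chr8:72319033-72321656 on the plus strand, Klf4 chr4:55527143-55532466 on the minus strand and Nanog chr6:122707489-122714633 on the plus strand, and each window covers the first bases of its gene. Zfp42 also lies on chromosome 8, at chr8:43295063-43306980 on the minus strand. Tfcp2l1 (118627945 to 118685168) and Prdm14 (13113457 to 13127163) lie on chromosome 1, Tbx3 (119670669 to 119684724) on chromosome 5, Esrrb (86361117 to 86521628) on chromosome 12 and Klf5 (99298691 to 99315036) on chromosome 14. The Klf2 window held 2 GC boxes and the Klf4 window 4, of which a pair in Klf4 share a base, and the Zfp42 window also held 2. At least 1 GC box was in 35.7% of the 32851 windows of this length. The GC box was picked after these windows had been seen. Klf2 and Klf4 windows were rich in G and C, at 69.3% and 74.3%, against a median of 52.7% over all windows. RefSeq gives Nanog a pair of starts, of which the GENCODE gene begins at the first and the printed window belongs to the second. The SOX-OCT letters began 75 bases before the first start and 151 before the second, and they occurred in 8 of the 32851 windows (0.0244%), of which 2 were the overlapping Nanog windows. The STAT letters TTCNNNGAA occurred in 8.3% of all windows and among the factors only in an Esrrb window. The ESRRB letters AAGGTCA (4.72% of all windows) and the TCF letters ATCAAAG (3.73%) were in no window of the 6 factors. The KLF letters GGGNGTG (29.2%) occurred 2 times in each Nanog window and in that of Tfcp2l1, once in that of Zfp42 and in 1 of the Esrrb windows. These matches describe letters in a short window and say nothing of binding.

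Of the 9 factors, 3 fell in PRAMEL7-WT ESCs relative to parental ESCs and none rose, whereas in PRAMEL7-ΔN ESCs 1 fell and none rose. The factor that fell in PRAMEL7-ΔN ESCs, Klf2, was not among the 3 of PRAMEL7-WT ESCs, which were Klf4, Nanog and Zfp42. For the whole transcriptome, 16.3% of tested genes were called lower and 8.71% higher in PRAMEL7-WT ESCs, and 13.6% lower and 6.25% higher in PRAMEL7-ΔN ESCs. Higher calls made up 34.8% of all calls in PRAMEL7-WT ESCs and 31.4% in PRAMEL7-ΔN ESCs, and these shares became 54.8% and 46.8% with median-ratio scaling of the libraries. With an unadjusted p under 0.05 the count of higher factors was 0 in PRAMEL7-WT ESCs and 1, Esrrb, in PRAMEL7-ΔN ESCs, and limma voom on reads called 0 in both. The median log2 fold change of the 9 factors was −0.08 in PRAMEL7-WT ESCs, where all tested genes had a median of −0.08, and 0.17 in PRAMEL7-ΔN ESCs against −0.06. Between the derived lines, 4 factors were lower in PRAMEL7-WT than in PRAMEL7-ΔN ESCs (Klf4, Nanog, Zfp42 and Esrrb) and 1, Klf2, was higher. In that comparison 9.44% of all tested genes were lower and 10.9% higher. Both comparisons with parental ESCs used the same 2 parental libraries, which differed from each other more than the libraries of either derived line did, with a median absolute log2 difference of 0.17 over 8560 genes against 0.08 and 0.10.

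**Figure D1:**
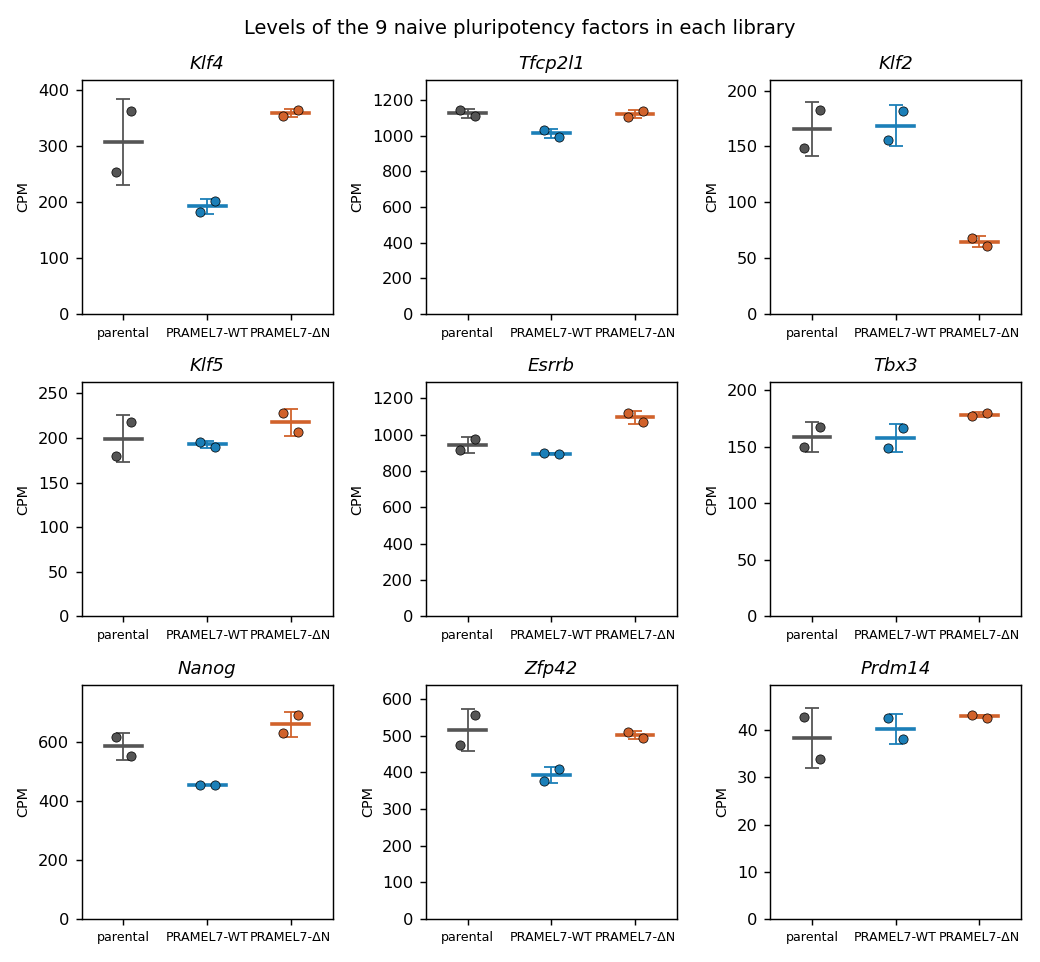
Level of each factor in CPM (linear axes from 0) in the 2 libraries of parental, PRAMEL7-WT and PRAMEL7-ΔN ESCs; points are libraries, thick lines line means and error bars SD (n = 2). Klf2 stands apart in PRAMEL7-ΔN ESCs (68.0 and 61.0 CPM), whereas Klf4, Nanog and Zfp42 are lowest in PRAMEL7-WT ESCs and the other factors differ less between the lines.

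Klf2 encodes a zinc-finger factor that sustains self-renewal, and its protein is a known target of ERK-driven degradation. Its RNA was measured at 148.2 and 182.4 CPM in parental ESCs, 155.8 and 181.6 CPM in PRAMEL7-WT ESCs and 68.0 and 61.0 CPM in PRAMEL7-ΔN ESCs. Both PRAMEL7-ΔN libraries lay far below the other 4, among which the parental and PRAMEL7-WT values overlapped. The mean was 2.56-fold lower in PRAMEL7-ΔN than in parental ESCs, a log2 fold change of −1.34 (SE 0.12, adjusted p = 0.000168). Against PRAMEL7-WT ESCs the difference was 1.37 on the log2 scale, higher in PRAMEL7-WT ESCs (SE 0.12, adjusted p = 0.000137). The difference between PRAMEL7-WT and parental ESCs was 0.03, with a 95% interval from −0.24 to 0.31. In size, the Klf2 change in PRAMEL7-ΔN ESCs was within the largest 1.49% of all tested genes. Genes within 1 Mb of Klf2, 44 of them tested, had a median log2 fold change of 0.01 in PRAMEL7-ΔN ESCs, with 3 higher and 1 lower. Over all tested genes, 6.25% were called higher and 13.6% lower there. The calls on Klf2 against parental and PRAMEL7-WT ESCs held under every alternative tried.

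Klf4, a target of STAT3 and one of the reprogramming factors, had 253.2 and 362.3 CPM in parental ESCs, 182.3 and 202.1 CPM in PRAMEL7-WT ESCs and 354.1 and 364.3 CPM in PRAMEL7-ΔN ESCs. Both PRAMEL7-WT libraries were below all others. The parental libraries were far apart, and 1 of the PRAMEL7-ΔN libraries lay between them. Klf4 fell in PRAMEL7-WT ESCs with a log2 fold change of −0.66 (SE 0.14, adjusted p = 0.0118), 1.6-fold on the ratio of means. The size rested on the parental library used, at −0.91 without the first and −0.40 without the second. A fit with 1 parental library takes its spread from the derived lines, whose libraries differed less from each other. For such fits only effect sizes are given. The difference between the derived lines was −0.90 (SE 0.14, adjusted p = 0.00284), again lower in PRAMEL7-WT ESCs. In PRAMEL7-ΔN ESCs the value was 0.25 (adjusted p = 0.276, 95% interval from −0.08 to 0.57). Without the second parental library it was 0.50, and without the first it was −0.01. The call in PRAMEL7-WT ESCs against parental ESCs was lost without either PRAMEL7-WT library, at log2 fold changes of −0.58 (adjusted p = 0.107) and −0.73 (adjusted p = 0.0616), where the remaining library was assumed to vary like those of the other lines.

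Klf5, a further KLF factor of naive cells, also has a role in the trophectoderm. It ranged from 180.3 to 228.3 CPM over the 6 libraries, and the PRAMEL7-WT values lay between the parental ones. No call was made in any comparison. The largest of its log2 fold changes was −0.17 between PRAMEL7-WT and PRAMEL7-ΔN ESCs (adjusted p = 0.277, 95% interval from −0.41 to 0.06). Without the second parental library, PRAMEL7-ΔN over parental ESCs was at 0.27, against 0.13 with it.

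Klf2, Klf4 and Klf5 bind closely related GC-rich sites and are known to stand in for one another, so their RNA was set side by side within each library. On a scale of CPM per kilobase of exon, their sum was 197.9 and 259.5 in parental ESCs, 181.8 and 201.1 in PRAMEL7-WT ESCs and 196.8 and 192.2 in PRAMEL7-ΔN ESCs. The sums of the lines overlapped or nearly touched, while the Klf2 and Klf4 shares of the sum stood apart in the 3 lines. As levels, Klf2 overlapped between parental (80.25 and 98.75) and PRAMEL7-WT ESCs (84.36 and 98.34). Klf4 overlapped between parental (83.03 and 118.8) and PRAMEL7-ΔN ESCs (116.1 and 119.5). The Klf5 part was 16.2% to 22.3% and overlapped between the derived lines. Klf4 per kilobase was 1.03 and 1.2 times Klf2 in parental ESCs and 0.709 and 0.674 times in PRAMEL7-WT ESCs, but 3.15 and 3.62 times in PRAMEL7-ΔN ESCs. The ratios of the 3 lines did not overlap. Klf2 made up 18.7% and 17.2% of the sum in PRAMEL7-ΔN ESCs, against 38.1% to 48.9% in the 4 other libraries. A ratio within a library does not depend on the scaling between libraries.

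**Figure D2:**
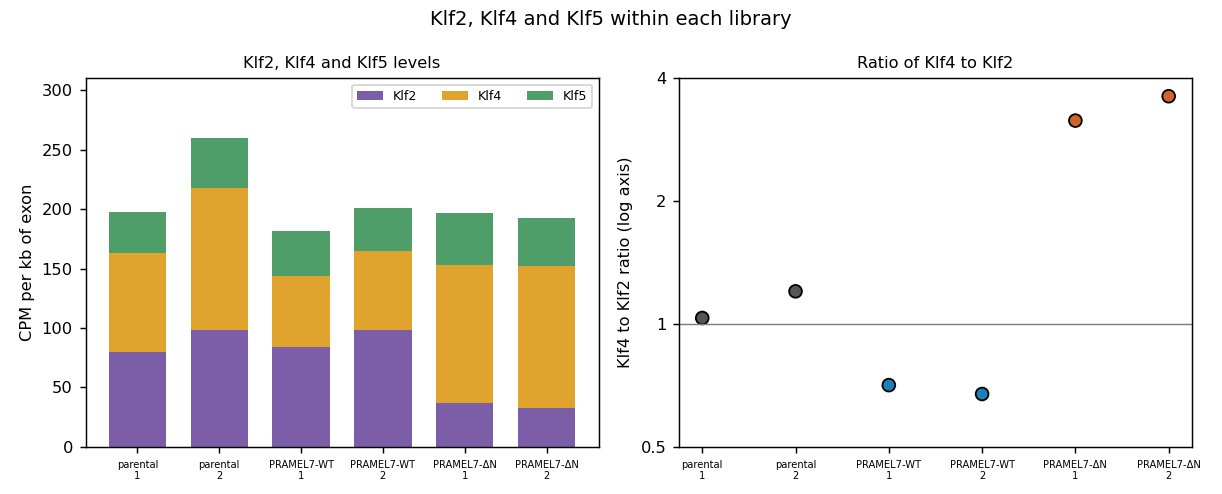
Left, stacked bars of Klf2, Klf4 and Klf5 in CPM per kilobase of exon for each library; right, the ratio of Klf4 to Klf2 on a log axis, with a line at 1. The bar heights are similar apart from the second parental library (259.5), whereas the ratio is below 1 in PRAMEL7-WT ESCs and above 3 in PRAMEL7-ΔN ESCs.

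Nanog, the homeodomain factor that lets ESCs self-renew with little LIF, had 618.3 and 553.4 CPM in parental ESCs, 453.8 and 454.3 CPM in PRAMEL7-WT ESCs and 631.3 and 691.9 CPM in PRAMEL7-ΔN ESCs. The 3 lines did not overlap, and PRAMEL7-WT ESCs were lowest. Nanog fell in PRAMEL7-WT ESCs, with a log2 fold change of −0.36 (SE 0.09, adjusted p = 0.0178) against parental ESCs and of −0.54 (SE 0.09, adjusted p = 0.00336) against PRAMEL7-ΔN ESCs. Its value in PRAMEL7-ΔN over parental ESCs was 0.18 (adjusted p = 0.209), and 0.26 without the first parental library. The call in PRAMEL7-WT against parental ESCs was lost without either PRAMEL7-WT library (−0.36 and −0.37), and the call against PRAMEL7-ΔN ESCs without the second PRAMEL7-ΔN library (−0.47).

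Chromosome 6, which holds Nanog and the Rosa26 locus that carries the transgenes, was shifted in its median. Its 603 tested genes had a median log2 fold change of −0.26 in PRAMEL7-WT ESCs and 0.25 in PRAMEL7-ΔN ESCs, and of −0.39 between PRAMEL7-WT and PRAMEL7-ΔN ESCs. Relative to the chromosome median, Nanog was at −0.11 (adjusted p = 0.418), −0.07 (adjusted p = 0.648) and −0.15 (adjusted p = 0.281) in these comparisons, and no call was left. Among the 13 other tested genes within 1 Mb of Nanog, 0 were higher and 5 lower in PRAMEL7-WT ESCs by limma, with a median of −0.28 (1 higher at an unadjusted p under 0.05 and 0 by voom). In PRAMEL7-ΔN ESCs 7 were higher and 1 lower, with a median of 0.40. Over all tested genes, 8.71% were higher and 16.3% lower in PRAMEL7-WT ESCs, and 6.25% and 13.6% in PRAMEL7-ΔN ESCs. The 1 Mb window also holds Dppa3, a maternal factor that guards methylation, which was the lowest of the 13 in both derived lines, at −2.12 and −2.67. Gt(ROSA)26Sor, the gene of the Rosa26 locus, lies at −9.63 Mb from Nanog. It was at −0.15 in PRAMEL7-WT and −0.93 in PRAMEL7-ΔN ESCs over parental ESCs. The part of the chromosome-wide shift, or of the insertion at Rosa26, in the Nanog values was not tested. Chromosome 11, which holds none of the factors, was also shifted, with medians of −0.36 in PRAMEL7-WT and −0.33 in PRAMEL7-ΔN over parental ESCs. For the 5 tested genes of chromosome Y the medians were 0.90 and −2.26. The other factors lie on chromosomes whose medians stayed between −0.09 and 0.04 in the 3 comparisons, and subtracting those medians left the calls on Klf2, Klf4 and Zfp42 in place. Esrrb lost its call between the derived lines in that way (−0.25, adjusted p = 0.0621) and gained one in PRAMEL7-ΔN over parental ESCs (0.29, adjusted p = 0.0432).

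**Figure D3:**
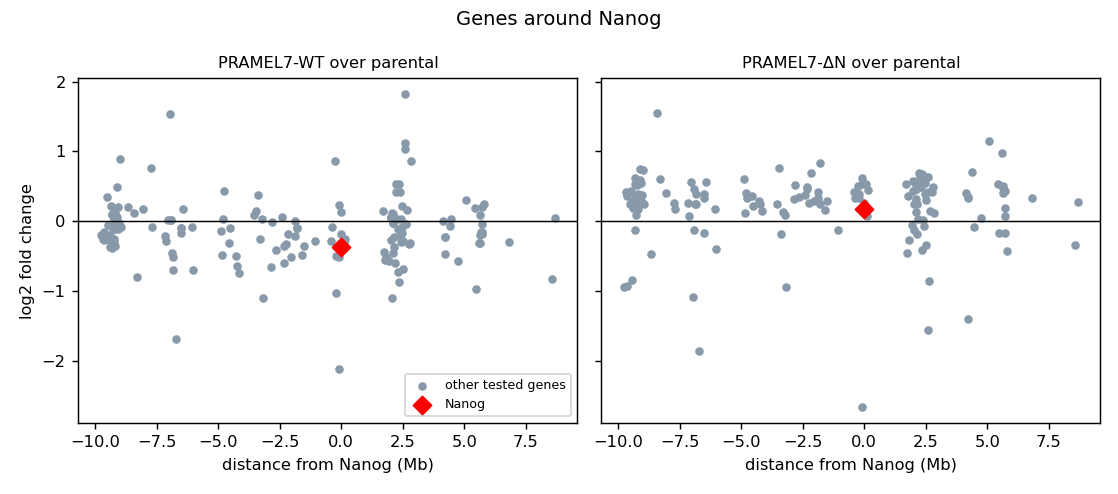
log2 fold change of each tested gene against its distance in Mb from Nanog, up to 10 Mb to each side, in PRAMEL7-WT and PRAMEL7-ΔN over parental ESCs; the diamond is Nanog. Most genes of the region lie below 0 in PRAMEL7-WT ESCs and above 0 in PRAMEL7-ΔN ESCs, and Nanog (−0.36 and 0.18) sits among them. The range includes the Rosa26 locus at −9.63 Mb.

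Zfp42, the zinc-finger gene also called Rex1 and the classical reporter of the naive state, had 474.9 and 556.2 CPM in parental ESCs, 377.0 and 408.6 CPM in PRAMEL7-WT ESCs and 510.2 and 494.2 CPM in PRAMEL7-ΔN ESCs. PRAMEL7-WT ESCs were below every other library, while PRAMEL7-ΔN values lay within the parental ones. The fall in PRAMEL7-WT ESCs was −0.39 against parental ESCs (SE 0.10, adjusted p = 0.0184) and −0.35 against PRAMEL7-ΔN ESCs (SE 0.10, adjusted p = 0.0299). With median-ratio scaling the first of these was −0.29 (adjusted p = 0.0516), and Nanog was at −0.27 (adjusted p = 0.0654), so that of the 3 calls in PRAMEL7-WT ESCs only Klf4 remained. The Zfp42 call against parental ESCs was also lost without either PRAMEL7-WT library (−0.33 and −0.45), and that against PRAMEL7-ΔN ESCs without any single library of these lines (−0.30 to −0.41).

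Esrrb is an orphan nuclear receptor and a main target of TCF7L1 repression. It had 914.1 and 975.7 CPM in parental ESCs, 898.7 and 894.3 CPM in PRAMEL7-WT ESCs and 1121 and 1071 CPM in PRAMEL7-ΔN ESCs. Both PRAMEL7-ΔN libraries were above the other 4. The difference between the derived lines passed the test at −0.29 (SE 0.08, adjusted p = 0.0355), lower in PRAMEL7-WT ESCs, and was lost without any single library of these lines (−0.26 to −0.32). Against parental ESCs, PRAMEL7-ΔN ESCs were at 0.21 (adjusted p = 0.1) and PRAMEL7-WT ESCs at −0.08 (adjusted p = 0.529). With median-ratio scaling the value in PRAMEL7-ΔN ESCs was 0.30 and passed the test (adjusted p = 0.0382). Without the second parental library it was 0.26.

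Tfcp2l1, the STAT3 target that carries much of the LIF effect, had 1142 and 1108 CPM in parental, 1030 and 993.7 CPM in PRAMEL7-WT and 1107 and 1139 CPM in PRAMEL7-ΔN ESCs. The PRAMEL7-WT libraries were below all others, but the log2 fold change of −0.15 was not called (adjusted p = 0.190, 95% interval from −0.33 to 0.03). Tbx3, a T-box factor downstream of PI3K signalling, ranged from 148.8 to 180.2 CPM. Both PRAMEL7-ΔN libraries were the highest, at 177.0 and 180.2 CPM, with a value of 0.17 over parental ESCs (adjusted p = 0.245). An antisense RNA, Tbx3os1, overlaps 697 bases of Tbx3 and the library kit does not mark strand, but it was listed at no more than 0.845 CPM. Prdm14, which represses FGF signalling and DNA methyltransferases, was the least abundant factor, at 33.9 to 43.2 CPM, and both derived lines overlapped the parental values. Its values of 0.08 in PRAMEL7-WT and 0.17 in PRAMEL7-ΔN ESCs were not called, and their 95% intervals ran from −0.21 to 0.36 and from −0.12 to 0.45. Without the first parental library the value in PRAMEL7-ΔN ESCs was 0.33.

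**Figure D4:**
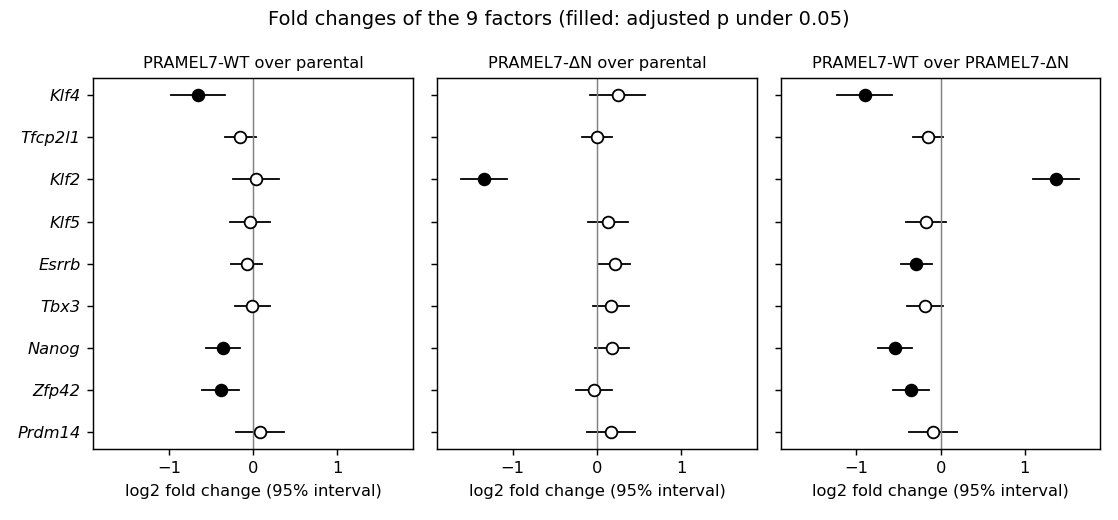
log2 fold change of each factor (point) with its 95% interval (line) from limma in the 3 comparisons; filled points have an adjusted p under 0.05. Klf2 lies at −1.34 in PRAMEL7-ΔN ESCs and near 0 in PRAMEL7-WT ESCs, while Klf4 lies at −0.66 in PRAMEL7-WT ESCs.

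Per kilobase of exon, Zfp42 and Nanog held the top of the order and Tbx3 and Prdm14 its end in every line, while the KLF factors changed places. In parental ESCs Zfp42 (274.1 CPM per kilobase) and Nanog (261.3) led without separating beyond their spread, followed by Esrrb at 156.3. Tfcp2l1 (119.2), Klf4 (100.9) and Klf2 (89.5) came next, and neighbours among them overlapped. Klf5 (38.3), Tbx3 (24.0) and Prdm14 (15.0) closed the order, each apart from the next. In PRAMEL7-WT ESCs Klf2 (91.4) stood above Klf4 (63.0) with no overlap. In PRAMEL7-ΔN ESCs Nanog (295.1) stood above Zfp42 (267.0), Klf4 (117.8) overlapped Tfcp2l1 (119.0), and Klf2 (34.9) had dropped below Klf5 (41.8).

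The genes whose log2 levels ran most like those of Klf2, Klf4 and Nanog over the 6 libraries were sought among 8551 tested genes with a mean of at least 10 CPM. These correlations are descriptions over 3 lines of 2 libraries. For Klf2 they were Tpd52l1 (Pearson r = 0.995), Prrc1 (0.994) and Gpa33 (0.992), of which Prrc1 and Gpa33 differed in PRAMEL7-ΔN ESCs by −1.52 and −1.32 on the log2 scale and Tpd52l1 by −0.44. For Klf4 they were Chd7 (0.997), Dbt (0.995) and Phf14 (0.993), the last on chromosome 6, at −0.34 to −0.45 in PRAMEL7-WT ESCs. For Nanog they were Fam169a (0.997), Mtmr6 (0.996) and Zbtb44 (0.996), none of them on chromosome 6, at −0.29 to −0.46 in PRAMEL7-WT ESCs.

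Genes upstream of the factors, in lists drawn up from general knowledge, were counted by the same test. Beside the counts of this and the later lists stand the shares over all tested genes. These were 8.71% higher and 16.3% lower in PRAMEL7-WT ESCs, and 6.25% higher and 13.6% lower in PRAMEL7-ΔN ESCs. Between the derived lines they were 10.9% higher and 9.44% lower in PRAMEL7-WT ESCs. Of 9 genes of the LIF and STAT3 pathway, 1 rose and 2 fell in PRAMEL7-WT ESCs, and 2 rose and 2 fell in PRAMEL7-ΔN ESCs. Between the derived lines limma called 0 of them, with 1 higher and 1 lower at an unadjusted p under 0.05 and 0 by voom. In both lines Lifr and Il6st, the receptor chains, fell and Tyk2, a kinase bound to such receptors, rose. Lifr, with 129.9 and 120.0 CPM in parental ESCs, changed by −0.60 (adjusted p = 0.00264) in PRAMEL7-WT ESCs and −0.33 (adjusted p = 0.0321) in PRAMEL7-ΔN ESCs. Il6st, which encodes gp130, changed by −0.52 (adjusted p = 0.00294) and −0.46 (adjusted p = 0.00485). Tyk2 changed by 0.42 (adjusted p = 0.016) and 0.49 (adjusted p = 0.00865), and the kinase gene Jak1 rose in PRAMEL7-ΔN ESCs (0.42, adjusted p = 0.0113). Stat3 was at −0.23 (adjusted p = 0.0799) and −0.19 (adjusted p = 0.164). The median of the list was −0.04 in PRAMEL7-WT and −0.15 in PRAMEL7-ΔN ESCs, beside −0.08 and −0.06 for all tested genes.

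Of 9 tested genes of the WNT and TCF7L1 branch (Sp5 was not tested), 1 rose and 4 fell in PRAMEL7-WT ESCs and 1 rose and 2 fell in PRAMEL7-ΔN ESCs, with medians of −0.26 and −0.19. Tcf7l1, the repressor itself, rose in both. It had 37.3 and 39.6 CPM in parental ESCs, 71.4 and 79.8 CPM in PRAMEL7-WT ESCs and 71.1 and 66.0 CPM in PRAMEL7-ΔN ESCs, which gave 0.96 (adjusted p = 0.000818) and 0.82 (adjusted p = 0.000804). Esrrb, its target, was not called lower than in parental ESCs in either line. Axin2, a feedback target of WNT signalling, fell with values of −0.80 (adjusted p = 0.00691) and −1.37 (adjusted p = 0.00056), and was the 1 gene of this list called between the derived lines, at 0.57 (adjusted p = 0.0304). Both genes of the list that fell in PRAMEL7-ΔN ESCs, Axin2 and Tcf7, lie on chromosome 11, as does Stat3. The 1102 tested genes of that chromosome had medians of −0.36 in PRAMEL7-WT and −0.33 in PRAMEL7-ΔN ESCs over parental ESCs, and −0.04 between the derived lines. Tcf7l1 lies on chromosome 6, whose medians are given above. The part of these shifts in the values of the list was not tested.

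Among the 6 listed core factors, Nr0b1 and Utf1 rose in PRAMEL7-WT ESCs and 0 fell by limma. At an unadjusted p under 0.05, 1 was lower, and by voom 0 were. The medians of the list were 0.18 in PRAMEL7-WT and 0.06 in PRAMEL7-ΔN ESCs, beside −0.08 and −0.06 for all tested genes. Nr0b1, a nuclear receptor that partners OCT4, had 68.9 CPM in each parental library, 116.5 and 130.1 CPM in PRAMEL7-WT ESCs and 74.1 and 68.6 CPM in PRAMEL7-ΔN ESCs. Its log2 fold change in PRAMEL7-WT ESCs was 0.83 (adjusted p = 0.000991), and it was 0.78 above PRAMEL7-ΔN ESCs (adjusted p = 0.0007). Sall4 was 0.30 higher (adjusted p = 0.0291) and Zfp281 0.44 lower in PRAMEL7-WT than in PRAMEL7-ΔN ESCs (log2 fold change −0.44, adjusted p = 0.0351). In PRAMEL7-ΔN ESCs limma and voom called 0 of the 6 in either direction, with 0 higher and 2 lower at an unadjusted p under 0.05. Pou5f1, which encodes OCT4, was at 0.25 (adjusted p = 0.0624) in PRAMEL7-WT and 0.12 (adjusted p = 0.368) in PRAMEL7-ΔN ESCs.

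Of 12 other genes of the naive state, 0 rose and 6 fell in PRAMEL7-WT ESCs by limma, with 1 higher at an unadjusted p under 0.05 and 0 by voom, and 4 rose and 4 fell in PRAMEL7-ΔN ESCs. Their medians were −0.23 and −0.09. Dppa3, Pecam1 and Nr5a2 fell in both lines. Pecam1 changed by −0.955 (adjusted p = 0.000818) in PRAMEL7-WT and −1.38 (adjusted p = 5.18e-05) in PRAMEL7-ΔN ESCs. For Nr5a2 the values were −0.42 (adjusted p = 0.00907) and −0.47 (adjusted p = 0.00593). Dppa3 lies on chromosome 6 and Pecam1 on chromosome 11, whose medians are given above. The part of those shifts in these values was not tested. Tet2, a 5-methylcytosine oxidase, had 106.5 and 139.5 CPM in parental, 84.9 and 97.6 CPM in PRAMEL7-WT and 188.6 and 176.6 CPM in PRAMEL7-ΔN ESCs, and the log2 fold changes were −0.42 (adjusted p = 0.0421) and 0.58 (adjusted p = 0.0132). Jam2, a junctional adhesion protein, likewise fell in PRAMEL7-WT ESCs (−0.43, adjusted p = 0.0109) and rose in PRAMEL7-ΔN ESCs (0.35, adjusted p = 0.0286). Gbx2, a homeobox gene, rose in PRAMEL7-ΔN ESCs by 1.18 (adjusted p = 0.00193). Fbxo15, an F-box gene and marker of ESCs, fell there (−0.77, adjusted p = 0.00148) and was at −0.04 in PRAMEL7-WT ESCs (adjusted p = 0.804).

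Of 10 tested genes of the formative and primed states (Fgf5, Fgf8 and T were not tested), 2 rose and 1 fell in PRAMEL7-WT ESCs and 1 rose and 4 fell in PRAMEL7-ΔN ESCs. Between the derived lines 4 were higher in PRAMEL7-WT ESCs and 0 lower by limma, beside 10.9% and 9.44% of all tested genes. At an unadjusted p under 0.05 and by voom, 0 were lower too. The medians of the list were 0.15 in PRAMEL7-WT and −0.13 in PRAMEL7-ΔN ESCs over parental ESCs, and 0.41 between the derived lines. All tested genes had medians of −0.08, −0.06 and −0.02. Otx2, the homeobox factor that drives exit from the naive state, had 44.4 and 43.5 CPM in parental, 61.9 and 63.4 CPM in PRAMEL7-WT and 24.0 and 21.2 CPM in PRAMEL7-ΔN ESCs. It rose in PRAMEL7-WT ESCs (0.50, adjusted p = 0.00901) and fell in PRAMEL7-ΔN ESCs (−0.93, adjusted p = 0.00052). Dnmt3a and Dnmt3b encode the de novo DNA methyltransferases. Dnmt3a fell in PRAMEL7-ΔN ESCs (−1.48, adjusted p = 1.92e-05) and was at −0.07 in PRAMEL7-WT ESCs, whereas Dnmt3b rose in PRAMEL7-WT ESCs by 0.89 (adjusted p = 0.00115) and was at −0.28 (adjusted p = 0.103) in PRAMEL7-ΔN ESCs. Zic2, a zinc-finger gene of primed cells, fell in both, with values of −0.90 (adjusted p = 0.00413) and −1.95 (adjusted p = 7.09e-05).

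**Figure D5:**
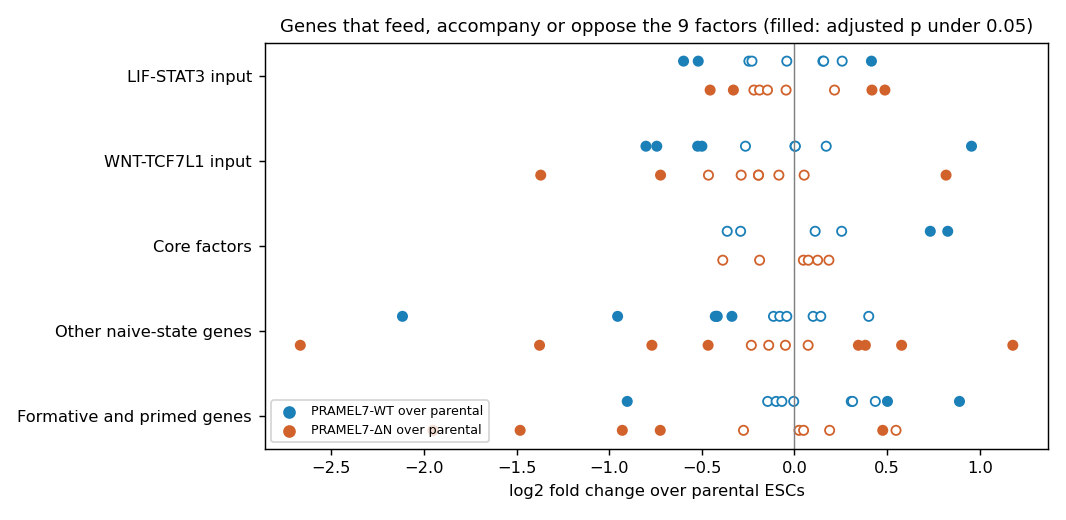
log2 fold change of each tested gene of the 5 lists in PRAMEL7-WT (blue) and PRAMEL7-ΔN ESCs (orange) over parental ESCs; filled points have an adjusted p under 0.05 from limma. Among the other naive-state genes 6 filled blue points lie below 0, and orange ones lie on both sides.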

How the data were processed

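Mouse ESCs of 3 lines had been sequenced as 6 RNA libraries (single end, unstranded, polyadenylated RNA). Per the methods of the study, the authors filtered out ribosomal reads (SortMeRNA), trimmed the rest (Trimmomatic), aligned them to mm10 (STAR) and computed exon coverage with a pipeline of their own. The submitters' processing notes also name Bowtie2 2.3.4.3 and Subread 1.4.6-p4. The deposited RPKM values were made by the authors with the whole span of each gene as its length: multiplied by the span, 98.04% to 98.36% of values up to 20 reads were within 0.1 of a whole number, against 40.07% to 41.89% with exon length. Each RPKM value was therefore multiplied by the GENCODE vM21 span and by the same constant in every library, so that the values are CPM on average and keep the authors' scaling. Of 50978 genes, 176 repeated or date-like names, 2796 without a match and 66 with several were left out, and 47940 were used. Genes that exceeded 1 CPM in 2 or more libraries were fitted with limma 3.58.1 in R 4.3.3 (log2(CPM + 1), mean-variance trend, 6 libraries in 1 fit), with Benjamini-Hochberg adjustment over the 12914 genes. The script was tested on simulated data whose fold changes were larger than those of all factors but Klf2. That test does not show how changes of a smaller size are recovered. Tables and figures used python 3.11.15, pandas 2.3.3, numpy 2.4.6 and matplotlib 3.10.9. The authors' comparison tables, which hold DESeq2 fold changes and p-values, were not used, and ChIP samples were not analysed here. The methods speak of more replicates and a different length of the deletion than the labels, and the labels were followed.

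The factors and lists were chosen with earlier results of these data known. Named from each list were up to 4 genes with the largest absolute log2 fold change between the derived lines among those called there; Lifr, Il6st, Tyk2, Jak1, Stat3, Tcf7, Tcf7l1, Utf1, Pou5f1 and Dppa3 were named after their values were seen. Likeness was the highest Pearson r for the 3 factors with the smallest adjusted p between the derived lines. The replicate numbers were not taken to pair libraries, since same-numbered differences of the lines correlated at 0.316, −0.356 and −0.124. Alternatives were other pseudocounts (0.1 and 5), filters and scalings, fits of only the lines compared, a replicate block, voom on recovered reads, RPKM without conversion, no trend, a limit of 0.58 on the absolute log2 fold change, subtraction of chromosome medians and leaving out each library.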

Additional observations from a re-analysis of the deposited data

Results flagged for a closer look

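The test of the difference between the derived lines, which is also the test of whether their effects against the shared parental libraries differ, passed for 5 factors. Of these, 1 was higher and 4 were lower in PRAMEL7-WT ESCs, beside 10.9% and 9.44% of all tested genes. The log2 fold change of PRAMEL7-WT over PRAMEL7-ΔN ESCs was 1.37 for Klf2 and −0.90 for Klf4, so that these related factors differed in opposite directions. It was −0.54 for Nanog, whose chromosome had a median of −0.39. For Zfp42 it was −0.35 and for Esrrb −0.29, and both lost the call when any library of the derived lines was left out. The derived lines also differed in the level of Pramel7 RNA and had been cloned separately, and the part of either in these differences was not tested.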

How the results depend on the processing

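Of 540 values of single factors under the 20 alternatives, 466 kept direction and call, 45 kept the direction and lost the call, 7 gained a call and 22 changed sign, all of the latter in uncalled values. These counts include fits that left out a library, where the line with 1 library took its spread from the other lines. Counts of factors for those fits are not given, and the calls lost in them are given with each factor above. The 3 factors lower in PRAMEL7-WT than in parental ESCs became 0 without a filter and with RPKM without conversion. They became 2 minus chromosome medians. They became 1 with median-ratio scaling, without a trend, and with a limit of 0.58 on the log2 fold change under adjusted or unadjusted p. The 4 lower in PRAMEL7-WT than in PRAMEL7-ΔN ESCs became 3 with quantile normalization and 1 with the limit of 0.58. They became 2 without a filter, without a trend, with RPKM without conversion and minus chromosome medians. The 0 factors higher in PRAMEL7-ΔN than in parental ESCs became 1 with median-ratio scaling and minus chromosome medians (Esrrb). In PRAMEL7-WT over parental ESCs signs changed with median-ratio scaling for Klf5 (0.0591), Esrrb (0.0237) and Tbx3 (0.0878), and minus chromosome medians for Klf5 (0.0479), Esrrb (0.0135) and Tbx3 (0.0167). Leaving out a library gave ranges across 0 for Klf2 (−0.116 to 0.181), Klf5 (−0.175 to 0.0969), Tbx3 (−0.094 to 0.0732) and Prdm14 (−0.0899 to 0.242). In PRAMEL7-ΔN over parental ESCs signs changed with median-ratio scaling for Tfcp2l1 (0.0818) and Zfp42 (0.0503), and minus chromosome medians for Nanog (−0.0703) and Tfcp2l1 (0.0191). There the ranges across 0 were those of Klf4 (−0.0125 to 0.503), Klf5 (−0.0044 to 0.268), Tfcp2l1 (−0.0238 to 0.0197) and Zfp42 (−0.147 to 0.0803). With the replicate block, 3 factors were lower in PRAMEL7-WT and 1 in PRAMEL7-ΔN than in parental ESCs, 4 were lower and 1 higher between the derived lines, and it changed no call. The cause of these changes was not tested. With 2 libraries per line, intervals of about 0.2 to 0.3 on the log2 scale to each side limit what could be seen for Klf5, Tbx3 and Prdm14.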
